A study of Mus musculus with 6 samples.

Results

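The genes of the cAMP signalling core were followed across the 3 groups of mice: adenylyl cyclases (*Adcy* with a number), cyclic nucleotide phosphodiesterases (*Pde* with a number and a letter from a to d), the 6 subunit genes of protein kinase A (PKA), and A-kinase anchoring proteins (*Akap* with a number). Choosing by symbol took 51 genes of the 55367 in each library, of which 10 are cyclases, 22 phosphodiesterases, 6 PKA subunits and 13 anchoring proteins. Cyclases make cAMP from ATP under the control of hormone receptors and G proteins, and phosphodiesterases break it down. PKA keeps its catalytic subunits silent with regulatory subunits until cAMP binds, and anchoring proteins hold the kinase near particular membranes, organelles and substrates. In the collecting duct, vasopressin acts through this pathway on water channels, and in polycystic kidneys cAMP is known to drive fluid secretion into cysts and proliferation of the cells that line them.

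RNA-seq was carried out on kidney cells bound by Dolichos biflorus lectin (DBA), a plant lectin that binds collecting duct epithelium, and each group had 2 libraries, all labelled Day115. WT mice and *Pkd1*−/− mice (ADPKD) received saline, and the ADPKD+MMPP group was *Pkd1*−/− mice given MMPP, a manganese-chelated melanin-like nanoparticle coated with polyethylene glycol, by repeated intravenous injection. The knockout was made in *Pkd1*fl/fl;*Cre/Esr1*+ males by tamoxifen given to young mice, so the gene is lost wherever the inducible Cre acts and not in DBA-bound cells alone. Strain, and whether the WT mice also carried Cre, are not given in the sources used here. The labels name DBA-positive cells as the starting material but also speak of whole kidney RNA, and they call the cells tubular epithelium.

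Values are FPKM, fragments scaled to gene length and library depth, so that levels of different genes share a scale, although in ADPKD+MMPP they also followed gene structure, as given below. FPKM times exon length fell within 0.02 of a whole read for 98.2% to 98.9% of the values under 50 reads, which gave depths of 30.6 M and 31.0 M reads in WT, 33.1 M and 32.1 M in ADPKD, and 11.8 M and 10.9 M in ADPKD+MMPP. Odd read numbers made up 37.5% and 38.3% of these values in WT, 37.6% and 39.2% in ADPKD, and 8.78% and 8.29% in ADPKD+MMPP. The treated libraries therefore differ from the others in depth and in the share of odd read numbers, which cannot be told apart from the treatment. How their values were made was not tested. At 3 reads or fewer a gene cannot be told from absent at these depths, a limit that covers counting error only. Where odd numbers are rare, as in ADPKD+MMPP, a few reads may stand for fewer fragments, so 4 reads there are no safer than this floor.

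Of the 51 members, 37 reached 1 FPKM in at least 2 libraries and were tested on log2(FPKM + 1) with limma, together with the 14862 genes of all kinds that passed the same filter. Fold changes on this scale understate the change of genes with low FPKM. A member is called higher or lower at a fold of at least 1.5 and an adjusted p under 0.05. The other 14 members were *Adcy2*, *Adcy8*, *Adcy10*, *Pde1c*, *Pde2a*, *Pde6a*, *Pde6b*, *Pde6c*, *Pde11a*, *Akap3*, *Akap4*, *Akap5*, *Akap6* and *Akap14*. All of them except *Adcy2*, which reached 1.53 FPKM in 1 ADPKD+MMPP library, were below 1 FPKM in every library. In the annotation 64.3% of the exon bases of *Pde2a* lie within exons of *Gm45837* on the same strand, so its low value is uncertain. Nothing says that the libraries of a group came from separate animals, so p-values measure only the spread between these samples, which may be technical.

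The deleted gene checks the labels first. *Pkd1* (chromosome 17, 24549834 to 24596508) had 17.7 and 17.2 FPKM in WT, 7.64 and 8.91 in ADPKD, and 4.34 and 3.99 in ADPKD+MMPP. Both knockout groups lay below WT with no overlap, and the log2 fold change in ADPKD was -0.998 (standard error 0.12, adjusted p = 0.00479, where p comes from limma and is adjusted by Benjamini-Hochberg). The value is taken over the whole gene and gives no separate reading of the deleted exons. *Esr1*, whose coding sequence is part of the inducible Cre and which was singled out after its values were seen, stood at 0.242 and 0.161 FPKM in WT, 30.6 and 30.3 in ADPKD, and 0.471 and 0.510 in ADPKD+MMPP. The treated libraries thus lay near WT for *Esr1*, although their label gives them the same knockout line as ADPKD. For *Pkd1* they were called lower than WT by limma, at -1.84 (adjusted p = 5.1e-05). Centred by gene structure this was -1.43 (adjusted p = 0.00016) and again called. They lay below ADPKD as well (log2 fold change -0.84, adjusted p = 0.00119), but not with a call once centred (-0.36, adjusted p = 0.0527). FPKM holds no separate value for reads of the transgene, and why *Esr1* and *Pkd1* place the treated libraries differently was not tested.

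Markers of collecting duct principal cells were abundant in all libraries, with a sum over 12 genes of 2163 and 2855 FPKM in WT, 2549 and 967 in ADPKD, and 5476 and 5496 in ADPKD+MMPP. *Aqp2*, the vasopressin-regulated water channel, was the most abundant of them at 1267 and 1776 FPKM in WT, 1392 and 677 in ADPKD, and 3555 and 3499 in ADPKD+MMPP. The label of tubular epithelium therefore has its markers, but markers of other cells were present too. The podocyte sum over 6 genes was 969 and 1328 FPKM in WT, 243 and 130 in ADPKD, and 122 and 127 in ADPKD+MMPP, and the proximal tubule sum over 14 genes was 614 and 520, then 1606 and 1443, then 11307 and 10848, with *Gpx3* at 8789 and 8321 in the treated libraries. Macrophage markers, 10 genes, summed to 245 and 190 FPKM in WT, 1184 and 845 in ADPKD, and 1347 and 1388 in ADPKD+MMPP. Values below are thus those of a mixture, in which fewer cells of a type and less RNA per cell cannot be told apart.

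**Figure D1:**
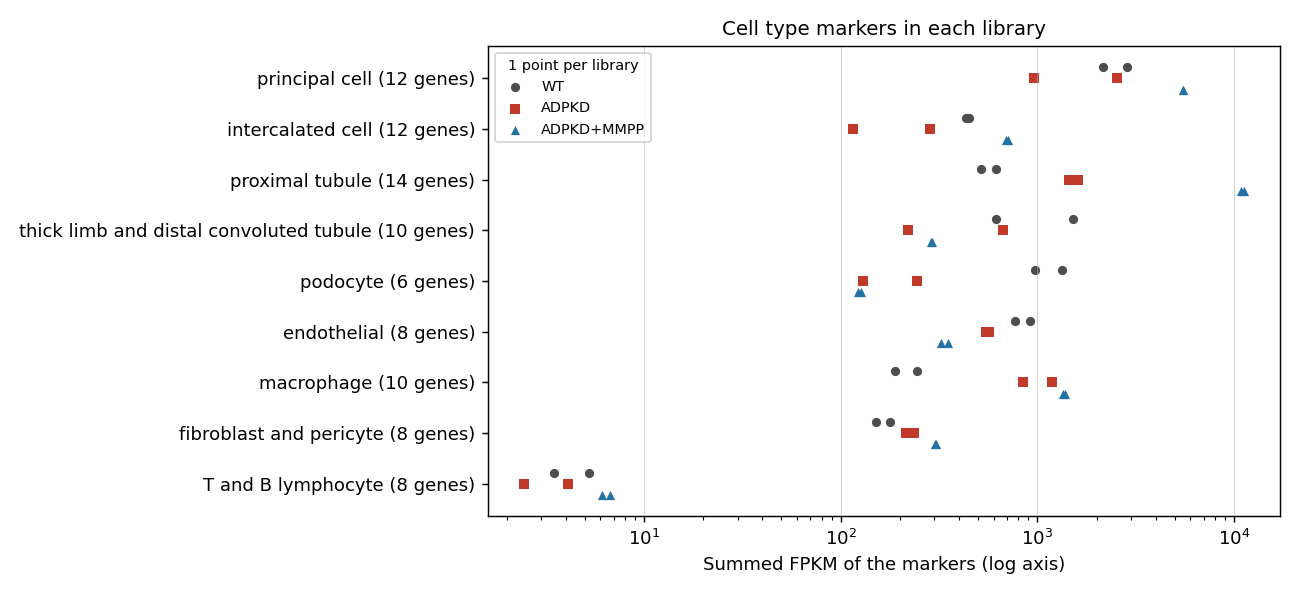
Summed FPKM of the markers of 9 cell types (vertical axis, with the number of genes listed) on a log horizontal axis, 1 point per library, for WT, ADPKD and ADPKD+MMPP. Podocyte markers were at 969 and 1328 FPKM in WT and at 130 to 243 in ADPKD, while proximal tubule markers reached 11307 FPKM in ADPKD+MMPP.

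The anchoring proteins had the largest summed level of the 4 families in WT, largely through *Akap12*. Summed FPKM of the 13 anchoring proteins was 369 and 265 in WT, 132 and 162 in ADPKD, and 32.9 and 30.2 in ADPKD+MMPP. *Akap12* alone made up 81.0% and 73.0% of this sum in WT, 55.1% and 62.8% in ADPKD, and 12.02% and 10.2% in ADPKD+MMPP. The cyclase sum was 112 FPKM in both WT libraries, 54.3 and 48.0 in ADPKD, and 9.86 and 8.34 in ADPKD+MMPP, so that it too fell into 3 separate ranges as deposited. Sums in ADPKD+MMPP carry the dependence on gene structure described below: against ADPKD, *Adcy6* went from -3.85 to -1.94 and *Akap12* from -4.28 to -2.36 when centred.

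Phosphodiesterases and PKA subunits differed less between the groups in summed level. The 22 phosphodiesterases summed to 129 and 127 FPKM in WT, 99.5 and 102 in ADPKD, and 86.5 and 85.1 in ADPKD+MMPP. For the 6 PKA subunits the sums were 170 and 163, then 146 and 133, then 92.4 and 92.5 FPKM. Within the phosphodiesterases, the enzymes specific to cAMP (*Pde4*, *Pde7* and *Pde8*) summed to 74.1 and 75.1 FPKM in WT, 65.7 and 75.01 in ADPKD, and 47.1 and 44.8 in ADPKD+MMPP, and the WT and ADPKD ranges overlapped. Those that act on both cyclic nucleotides summed to 35.0 and 32.5, then 22.0 and 19.0, then 35.1 and 36.9 FPKM. The cGMP group, *Pde5*, *Pde6* and *Pde9*, went from 20.3 and 19.2 FPKM in WT to 11.7 and 8.35 in ADPKD and 4.29 and 3.44 in ADPKD+MMPP. *Pde6d*, a carrier protein and not an enzyme, made up 57.2% and 60.5% of this sum in WT and 60.3% and 57.7% in ADPKD.

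**Figure D2:**
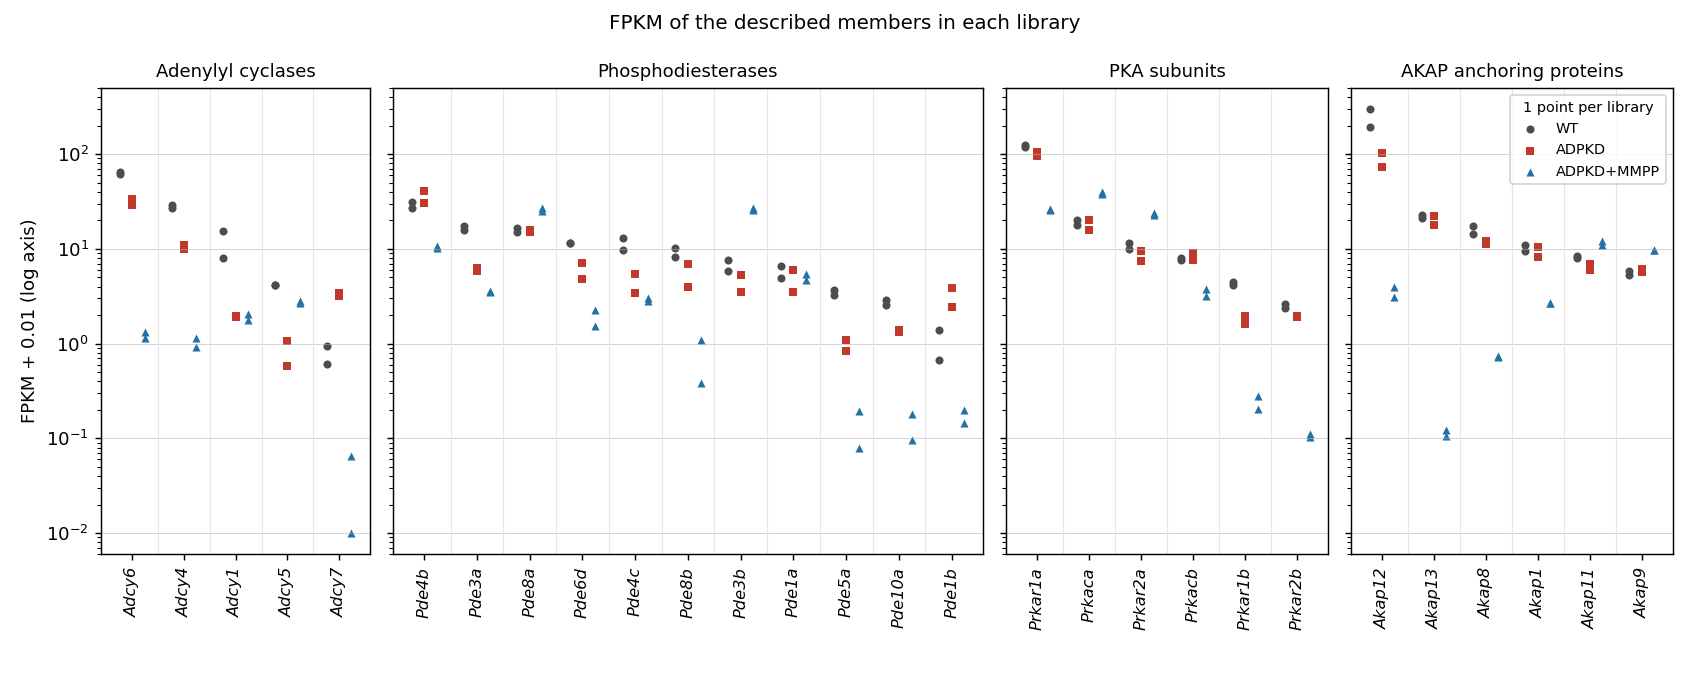
FPKM + 0.01 on a log vertical axis for the 28 members described by value in each library, in 4 panels by family, 1 point per library (WT circles, ADPKD squares, ADPKD+MMPP triangles). *Adcy6* steps from 64.6 and 61.3 FPKM in WT to 33.5 and 28.9 in ADPKD and 1.12 and 1.32 in ADPKD+MMPP, while *Pde3b* stands highest in ADPKD+MMPP at 25.9 and 27.1.

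The comparison of ADPKD with WT is labelled as loss of *Pkd1* without treatment. *Esr1*, part of the inducible Cre, differed as well, at 0.242 and 0.161 FPKM in WT against 30.6 and 30.3 in ADPKD. Loss of *Pkd1* therefore cannot be told apart here from any other difference between the mice that goes with *Esr1*. Most calls in ADPKD were toward lower RNA, and they fell mainly on the cyclases and on phosphodiesterases that do not belong to the abundant cAMP-specific ones. Of the 37 members tested, 13 were called (35.1%), against 22.7% of all genes tested. Lower members numbered 11 (29.7%, against 10.6% of all genes), and higher members numbered 2 (5.41%, against 12.0%). Those 2, *Adcy7* and *Pde1b*, needed the ADPKD libraries, where they were high, to pass the filter. With 1 FPKM required in all libraries neither was tested, and 0 of 21 members were called higher. Lower calls then numbered 6, beside 770 lower and 1069 higher calls among the 8698 genes of all kinds. The median log2 fold change was -0.32 over the tested members and 0.03 over all genes tested. Of the 6 PKA genes 1 was called, and the count of calls was 2 higher and 11 lower under each of the 3 other scalings tried and under centring by gene structure.

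Cyclases gave 4 lower and 1 higher call among the 7 tested, with a median of -0.99. *Adcy6*, the calcium-inhibited cyclase that serves vasopressin in the collecting duct, lies on chromosome 15 from 98589973 to 98610076 on the minus strand (GENCODE vM21 on GRCm38, as for all genes here). It had 64.6 and 61.3 FPKM in WT and 33.5 and 28.9 in ADPKD, a log2 fold change of -0.99 (standard error 0.12, adjusted p = 0.00487). It was the most abundant cyclase in both groups, making up 57.9% and 54.5% of the family's FPKM in WT and 61.7% and 60.2% in ADPKD. *Adcy5*, its closest relative, had 4.10 and 4.15 FPKM in WT against 1.04 and 0.564 in ADPKD, and fell by 1.52 on the log2 scale (standard error 0.17, adjusted p = 0.00395).

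*Adcy4*, of the calcium-insensitive cyclases, had 28.9 and 26.9 FPKM in WT and 10.8 and 10.001 in ADPKD, with a log2 fold change of -1.34 (standard error 0.12, adjusted p = 0.00271). *Adcy1*, a cyclase activated by calcium and calmodulin, had 7.95 and 15.4 FPKM in WT and 1.89 and 1.93 in ADPKD, and fell by 2.06 (standard error 0.28, adjusted p = 0.00636). The WT libraries of *Adcy1* lay far apart, yet both stood above both ADPKD libraries. The exception was *Adcy7*, a cyclase known from blood and immune cells and a relative of *Adcy4*, on chromosome 8 from 88272403 to 88329962. It had 0.923 and 0.595 FPKM in WT and 3.40 and 3.17 in ADPKD, a rise of 1.29 (standard error 0.15, adjusted p = 0.00466). *Adcy7* passed the filter through the ADPKD libraries alone, and was called higher again with no filter on low values. The remaining tested cyclases, *Adcy9* (log2 fold change -0.48) and *Adcy3* (-0.05), were not called.

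Among the phosphodiesterases that act on cAMP alone, 1 of 8 tested genes was called. *Pde4c* had 12.95 and 9.81 FPKM in WT and 5.39 and 3.38 in ADPKD, and fell by 1.21 on the log2 scale (standard error 0.22, adjusted p = 0.0137). The most abundant member of the group, *Pde4b*, had 27.3 and 31.0 FPKM in WT and 30.4 and 40.6 in ADPKD, with overlap and a log2 fold change of 0.26 (95% interval -0.13 to 0.66). *Pde8a*, a high-affinity cAMP phosphodiesterase, had 16.4 and 15.2 FPKM in WT and 15.2 and 15.7 in ADPKD, and its interval ran from -0.28 to 0.22. For *Pde8a* a change by 1.5 in either direction thus lies outside the interval, which was not so for *Pde4b*. *Pde8b* had 8.24 and 10.2 FPKM in WT and 6.89 and 3.93 in ADPKD and was not called (log2 fold change -0.70, adjusted p = 0.138).

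Phosphodiesterases of both cyclic nucleotides gave 2 lower and 1 higher call among 5 tested. *Pde3a*, which cleaves cAMP and is inhibited by cGMP, lies on chromosome 6 from 141249269 to 141507448. It had 17.2 and 15.7 FPKM in WT and 5.87 and 6.20 in ADPKD, and fell by 1.31 (standard error 0.11, adjusted p = 0.00262). Its paralog *Pde3b* had 5.83 and 7.71 FPKM in WT and 5.33 and 3.46 in ADPKD, without a call (log2 fold change -0.54, adjusted p = 0.109). *Pde10a* had 2.86 and 2.53 FPKM in WT and 1.39 and 1.32 in ADPKD (log2 fold change -0.65, adjusted p = 0.0207). *Pde1b*, one of the calmodulin-activated enzymes, was higher in ADPKD, at 2.43 and 3.82 FPKM against 1.39 and 0.664 in WT (log2 fold change 1.02, standard error 0.25, adjusted p = 0.0307). Outside ADPKD it reached 1 FPKM in 1 library only, and with no filter on low values its call and those of *Pde10a* and *Pde6d* were lost. *Pde1a*, of the same kind, had 6.53 and 4.89 FPKM in WT and 5.92 and 3.48 in ADPKD, with overlapping groups and no call.

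In the cGMP group, 2 of 3 tested genes were lower. *Pde5a*, the cGMP-specific enzyme blocked by sildenafil, had 3.67 and 3.28 FPKM in WT and 1.09 and 0.828 in ADPKD, and fell by 1.19 (standard error 0.15, adjusted p = 0.00522). *Pde5a* needed the WT libraries, where it was high, to pass the filter, and was called lower again with no filter on low values. *Pde6d* is named as a phosphodiesterase subunit but acts as a carrier of lipid-modified proteins, among them proteins of the primary cilium. It had 11.6 FPKM in both WT libraries and 7.08 and 4.81 in ADPKD (log2 fold change -0.88, standard error 0.21, adjusted p = 0.0286). The tested phosphodiesterases not described by value, *Pde4a*, *Pde4d*, *Pde7a*, *Pde7b* and *Pde9a*, gave no call in this comparison.

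The PKA subunits gave 1 call among 6. *Prkar1b*, a type I regulatory subunit best known from neurons, had 4.17 and 4.46 FPKM in WT and 1.94 and 1.59 in ADPKD, and fell by 0.94 (standard error 0.14, adjusted p = 0.00746). *Prkar1a*, the main type I regulatory subunit (chromosome 11, 109649405 to 109669656), had 126 and 119 FPKM in WT and 106 and 96.1 in ADPKD. Its groups did not overlap, but the log2 fold change of -0.27 (95% interval -0.53 to -0.02) did not reach the fold required and had an adjusted p of 0.104. Of the catalytic subunits, *Prkaca* had 20.1 and 17.7 FPKM in WT and 19.98 and 16.0 in ADPKD, and *Prkacb* had 7.59 and 8.08 against 8.96 and 7.59. Both overlapped between the groups. The type II regulatory subunits were not called either, with *Prkar2a* at 9.91 and 11.4 FPKM in WT and 7.47 and 9.40 in ADPKD, and *Prkar2b* at 2.37 and 2.61 against 1.92 and 1.96. Regulatory FPKM was 5.13 and 5.31 times catalytic FPKM in WT and 4.05 and 4.62 times in ADPKD.

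Among 8 anchoring proteins tested, *Akap12* alone was called in ADPKD. *Akap12* encodes gravin, a scaffold for PKA and protein kinase C beneath the plasma membrane, and lies on chromosome 10 from 4266380 to 4359470. It had 299 and 193 FPKM in WT and 72.9 and 102 in ADPKD, the highest level of all 51 genes in each of the WT libraries, and fell by 1.47 (standard error 0.26, adjusted p = 0.0125). Both ADPKD libraries lay below both WT libraries. *Akap13*, an anchoring protein that is also a guanine nucleotide exchange factor, had 22.5 and 21.4 FPKM in WT and 18.0 and 22.1 in ADPKD, with overlap. *Akap8*, found in the nucleus, had 14.4 and 17.3 FPKM in WT and 11.3 and 12.2 in ADPKD (log2 fold change -0.40, adjusted p = 0.0756). *Akap1*, of the outer mitochondrial membrane, *Akap11* and the centrosome and Golgi protein *Akap9* were not called, at 10.9 and 9.60, 7.95 and 8.47, and 5.30 and 5.89 FPKM in WT against 10.4 and 8.14, 6.84 and 5.91, and 6.19 and 5.73 in ADPKD.

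The number of calls moved when single libraries were left out, over all genes as well as over the members: 612 genes were higher and 530 lower without WT replicate 1, and 638 and 572 without WT replicate 2, in place of 1790 and 1580, while without ADPKD replicate 1 there were 2267 and 2202. Without WT replicate 1, 7 members were called in ADPKD, and *Akap12* (-1.16, adjusted p = 0.0718 from limma), *Prkar1b*, *Pde4c*, *Pde6d*, *Pde10a* and *Pde1b* lost their calls. Without WT replicate 2, 8 were called, and all of these except *Akap12* lost theirs. *Pde1b* and *Pde6d* were also lost without ADPKD replicate 2, with log2 fold changes of 0.78 and -0.64, and together with *Pde10a* without either ADPKD+MMPP library, which enters only through the shared spread. Without ADPKD replicate 1, 17 were called, with *Pde3b*, *Pde7a*, *Pde8b* and *Pde9a* added. The calls of *Adcy1*, *Adcy4*, *Adcy5*, *Adcy6*, *Adcy7*, *Pde3a* and *Pde5a* were made without each library in turn. Without WT replicate 1 the others stood at -0.98 for *Prkar1b*, -1.03 for *Pde4c*, -0.88 for *Pde6d*, -0.58 for *Pde10a* and 1.29 for *Pde1b*, and without WT replicate 2 at -0.91, -1.40, -0.88, -0.71 and 0.76 in the same order, so that *Prkar1b* and *Pde6d* lost their calls with folds close to the full ones. In these fits the lone library of a group is assumed to vary like the others.

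Genes that act with this core were taken as a list of 41, of which 30 were tested. In ADPKD, 2 were higher and 11 lower, with a median of -0.51, where 12.0% of all genes tested were higher and 10.6% lower. Under the other scalings 12 to 15 partners were lower. Among the G proteins, *Gnas*, which stimulates cyclases, had 14.0 and 12.8 FPKM in WT and 7.66 and 7.84 in ADPKD. The inhibitory *Gnai1* had 27.2 and 30.1 against 19.2 and 16.3, and *Gnai2* 159 and 141 against 103 and 88.4. All 3 were called lower, though *Gnai2* fell just short of the fold required when centred (-0.58). The other inhibitory gene, *Gnai3*, was not called, at 64.8 and 62.3 FPKM in WT and 62.0 and 67.1 in ADPKD.

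Receptors that raise cAMP were mostly lower or not called. *Pth1r*, the parathyroid hormone receptor, had 78.0 and 80.2 FPKM in WT and 35.7 and 9.27 in ADPKD. *Gcgr*, the glucagon receptor, had 21.9 and 12.9 against 2.88 and 0.309. In both of these called genes ADPKD replicate 2 was the lowest library of the WT and ADPKD groups. *Vipr1* was lower at 0.615 and 0.167 FPKM in ADPKD against 1.40 and 1.22 in WT, and needed the WT libraries to pass the filter. The calcitonin receptor *Calcr* was higher at 1.51 and 1.33 against 0.184 and 0.215, and passed the filter through the ADPKD libraries alone. The prostaglandin receptor *Ptger4* had 14.8 and 17.4 FPKM in WT and 16.2 and 14.0 in ADPKD, with overlap. The vasopressin receptor *Avpr2* was listed with 2 and 1 reads in WT, 4 and 0 in ADPKD, and 2 and 1 in ADPKD+MMPP. In the annotation 81.3% of its exon bases lie within exons of *Arhgap4* on the other strand, so its value here is uncertain and is no measure of its expression.

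Both genes of the EPAC sensors of cAMP were lower in ADPKD. *Rapgef3* and *Rapgef4* encode these exchange proteins, which switch on Rap. *Rapgef3* had 50.3 and 48.9 FPKM in WT and 20.9 and 21.0 in ADPKD, a log2 fold change of -1.20 (standard error 0.10, adjusted p = 0.00245). *Rapgef4* had 14.6 and 10.8 against 4.99 and 4.17, with a log2 fold change of -1.28. *Pkig*, an inhibitor peptide of PKA, had 18.1 and 20.5 FPKM in WT and 13.2 and 10.5 in ADPKD and was called lower, as was *Akap8l* at 25.2 and 22.1 against 16.2 and 11.8. *Abcc4*, a transporter that exports cAMP from cells, was higher, with 16.8 and 16.4 FPKM in ADPKD against 9.61 and 9.49 in WT. Among the nuclear factors downstream, *Atf1* had 16.5 and 18.5 FPKM in WT against 18.5 and 23.2 in ADPKD, and *Crtc2* had 45.1 and 40.2 against 34.7 and 43.4. *Crtc3* had 5.69 and 6.15 FPKM in WT and 4.69 and 6.98 in ADPKD, and *Crem* had 6.75 and 8.04 against 4.05 and 4.98. None of these 4 was called, but *Crem* (-0.61, adjusted p = 0.0545), *Creb1* (-0.57, adjusted p = 0.0202) and *Crtc1* (-0.58, adjusted p = 0.0402) lay below WT without overlap, short of a call, and were called lower when centred by gene structure.

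Cell type markers moved in the same comparison. Podocyte markers were lower for 6 of 6 genes, with the most abundant one, *Podxl*, at 475 and 609 against 114 and 56.8. Endothelial markers were lower for 7 of 8 genes and higher for 1, *Plvap*, with sums of 921 and 772 FPKM in WT and 547 and 567 in ADPKD. *Plvap*, the most abundant over all libraries together but not in WT, had 146 and 127 against 242 and 277. Intercalated cell markers were lower for 10 of 12, with sums of 431 and 451 FPKM in WT and 285 and 114.9 in ADPKD. *Car2*, the most abundant of them over all libraries together but not in WT, was not called (log2 fold change 0.43). It had 83.9 and 90.3 FPKM in WT and 188 and 73.3 in ADPKD. Macrophage markers were higher for 9 of 10, among them *Lyz2* at 7.63 and 8.69 FPKM in WT against 188 and 224 in ADPKD.

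Principal cell markers gave no call among 11 tested with limma, which called 0 of them in either direction, although ADPKD replicate 2 stood at 967 FPKM against 2163 to 2855 in WT and ADPKD replicate 1. Their median log2 fold change was -0.63, and centred by gene structure 1 was called higher and 1 lower. Proximal tubule markers were higher for 5 of 14 with *Gpx3* at 378 and 396 FPKM in WT and 1274 and 1300 in ADPKD. Of the thick limb and distal convoluted tubule markers 1 was higher and 2 lower of 10, and the sums of 1526 and 620 FPKM in WT and 673 and 219 in ADPKD overlapped. Fibroblast and pericyte markers were higher for 4 and lower for 1 of 8, with sums of 179 and 151 FPKM in WT and 215 and 235 in ADPKD. *Acta2* was the most abundant of them over all libraries together, but not in WT, where *Pdgfrb* lay higher. Lymphocyte markers summed to 5.25 and 3.49 FPKM in WT and 4.09 and 2.45 in ADPKD; 3 of 8 were tested, with 1 higher and 1 lower, and 4 were below 1 FPKM in every library. What part these shifts in cell type markers have in the calls of the cyclases, *Akap12*, *Pde3a*, *Pde5a* and the other members was not tested.

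ADPKD+MMPP against ADPKD sets the libraries labelled as treated knockouts beside the saline ones, and the *Esr1* values leave the match of the mice uncertain. The values divided the pathway by gene: *Adcy6*, *Akap12*, *Akap13* and *Prkar1a* were lower in the treated libraries as deposited, while *Pde3b*, *Prkar2a* and *Prkaca* were higher. With FPKM as deposited, 31 of 37 members were called (83.8%, against 70.3% of all genes tested), 7 higher (18.9%, against 27.7%) and 24 lower (64.9%, against 42.6%). The median log2 fold change was -0.92 over the members and -0.36 over all genes tested. Calls were so frequent across the transcriptome that a call by itself says little of these genes, and the paragraphs on gene structure and scaling below give how each direction depended on them. This comparison shares the ADPKD libraries with the previous one.

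The balance of higher and lower calls moved with scaling. All-gene medians were -0.73 after rescaling to a common sum, -0.13 with TMM factors and 0.10 after quantile normalization. The share of called genes that were higher was 39.4% as deposited, 31.9% with a common sum, 47.2% with TMM factors and 53.9% after quantile normalization. For the members, the counts were 4 higher and 27 lower with a common sum, 7 and 21 with TMM factors, and 9 and 13 after quantile normalization. Members lost from the calls after quantile normalization were *Adcy3*, *Adcy9*, *Akap10*, *Pde3a*, *Pde4d*, *Pde5a*, *Pde7a*, *Pde9a*, *Pde10a*, *Prkacb* and *Prkar1b*.

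Gene structure moved with the change after treatment as well. Each gene has a share of exon bases found in a single one of its annotated transcripts. Of 5761 protein-coding genes with a share under 50%, 405 were higher and 3959 lower in ADPKD+MMPP, with a median of -1.20, and of 6613 genes at 50% or more, 3271 were higher and 1219 lower, with a median of 0.60. The members divided likewise. Among 25 members under 50%, 1 was higher and 20 lower, with a median of -1.17, and among 12 members at 50% or more, 6 were higher and 4 lower, with a median of 0.31. In ADPKD against WT the medians of protein-coding genes on the 2 sides were -0.00 and 0.06, and those of the members -0.38 and -0.15. How the treated values came to follow this share cannot be told apart from the treatment, since it separates the same libraries.

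**Figure D3:**
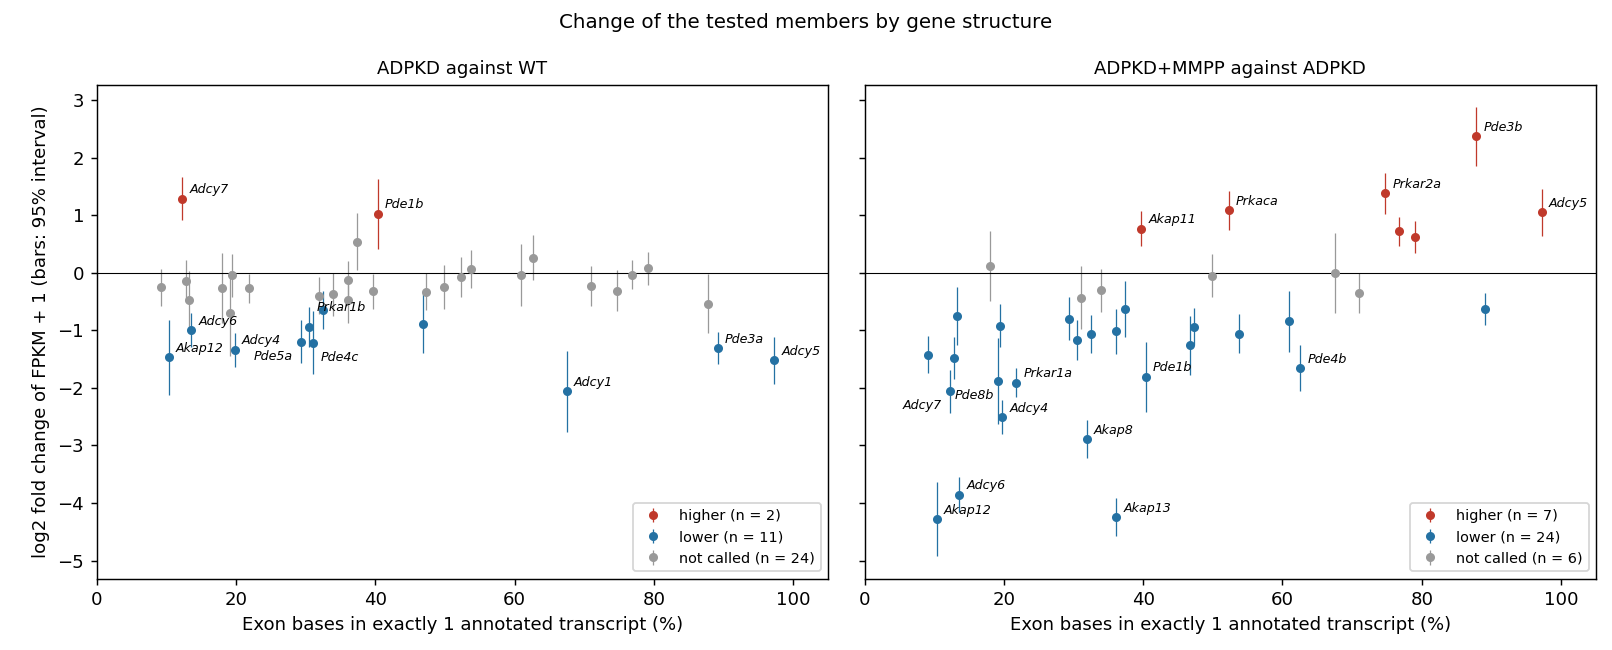
Log2 fold change of FPKM + 1 of the 37 tested members, with 95% intervals, against the share of exon bases found in a single annotated transcript, for ADPKD against WT (left) and ADPKD+MMPP against ADPKD (right). On the right, 20 of the 25 members with a share under 50% were called lower, and 6 of the 12 others were called higher.

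Each library was therefore also centred within 20 bins of this share over protein-coding genes, giving values called centred below. After centring, the treated libraries had 11 members called higher than in ADPKD and 8 lower, 58.0% of all called genes were higher, and the all-gene median was 0.15. Of the 24 lower calls, *Adcy4*, *Adcy6*, *Akap8*, *Akap12*, *Akap13*, *Pde3a*, *Pde4b* and *Pde4d* were called lower again, and *Adcy3*, *Adcy9* and *Pde5a* were called higher. Those 3 calls carry no direction, because log2(FPKM + 1) cannot go below 0: the largest possible fall from ADPKD was 1.03, 1.64 and 0.97 for these genes, and centring added 1.87, 1.92 and 1.49. The centred sign was fixed in the same way for *Prkar1b*, *Prkar2b* and *Pde10a*, 6 members in all, and for *Adcy7*, *Adcy3*, *Prkar2b* and *Pde1b* against WT. It was fixed for 0 members in ADPKD against WT. Of the 7 higher calls, *Akap11*, *Pde3b*, *Prkaca* and *Prkar2a* were called higher again. All 13 calls of ADPKD against WT were made again after the same centring.

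Cyclases gave 1 higher and 5 lower calls among 7, and 1 and 3 after quantile normalization, with a centred count of 2 and 2, where the 2 higher are *Adcy3* and *Adcy9*, whose sign the floor of the scale fixed. *Adcy6* had 1.12 and 1.32 FPKM in ADPKD+MMPP, from 90 and 98 reads, where ADPKD had 33.5 and 28.9. The log2 fold change was -3.85 (standard error 0.12, adjusted p = 1.18e-05), and centred it was -1.94. *Adcy6* made up 11.4% and 15.9% of cyclase FPKM in the treated libraries, in place of around 60.2% to 61.7% in ADPKD. *Adcy4* had 1.12 and 0.902 FPKM, a log2 fold change of -2.51 (standard error 0.12, adjusted p = 2.58e-05), with a centred value of -0.64. *Adcy7* was listed with 0 and 4 reads in the treated libraries, below both other groups, and its log2 fold change was -2.06 where at most 2.099 could be lost, so that its centred value of -0.14 could not have been called lower.

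The remaining cyclases did not go the same way. *Adcy5* had 2.78 and 2.65 FPKM in ADPKD+MMPP, above both ADPKD libraries and below both WT libraries, with a log2 fold change of 1.06 (standard error 0.17, adjusted p = 0.00174). Nearly all of its exon bases, 97.2%, lie in 1 transcript, and its centred value was -0.04. *Adcy1* had 2.03 and 1.77 FPKM, overlapping ADPKD, and its interval ran from -0.70 to 0.69. *Adcy9* and *Adcy3* were called lower as deposited at -0.75 and -0.92, and centring could not test either. *Adcy3* shares 22.1% of its exon bases with *Cenpo* on the other strand, so its reads are uncertain. *Adcy9* lost its call without ADPKD replicate 1 (-0.65) and without ADPKD+MMPP replicate 2 (-0.52).

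Phosphodiesterases gave 2 higher and 10 lower calls among 16, with a median of -0.71, but 4 and 4 after quantile normalization with a median of -0.07, and 5 and 3 centred with a median of 0.18, in part through *Pde5a* and *Pde10a*, whose centred sign the floor fixed. The balance of the family thus depended on scaling. *Pde3b*, an enzyme known for its part in insulin action on cAMP, lies on chromosome 7 from 114415281 to 114539251. It had 25.9 and 27.1 FPKM in ADPKD+MMPP against 5.33 and 3.46 in ADPKD, and rose by 2.37 (standard error 0.21, adjusted p = 0.000163), with a centred value of 1.26. It made up 73.7% and 73.4% of the FPKM of the enzymes for both cyclic nucleotides in the treated libraries, and 24.2% and 18.3% in ADPKD. Its paralog *Pde3a* had 3.49 and 3.58 FPKM after treatment, a log2 fold change of -0.63 (standard error 0.11, adjusted p = 0.00288), and -1.73 centred. The *Pde3* paralogs have like shares of exon bases in 1 transcript, 89.1% for *Pde3a* and 87.8% for *Pde3b*, and moved in opposite directions. The call of *Pde3a* was lost with TMM factors (-0.35) and after quantile normalization (-0.04).

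Among cAMP-specific enzymes, *Pde4b* had 10.7 and 10.3 FPKM in ADPKD+MMPP against 30.4 and 40.6 in ADPKD, a log2 fold change of -1.66 (standard error 0.16, adjusted p = 0.00024) and -1.41 centred. *Pde8a* had 27.0 and 25.3 FPKM after treatment and took the place of *Pde4b* as the most abundant of the group in these libraries, with a log2 fold change of 0.72 that was 0.24 centred and then not called. *Pde8b* had 0.375 and 1.09 FPKM, a log2 fold change of -1.88 and a centred value of -0.01. *Pde4c*, lower in ADPKD than in WT, had 3.06 and 2.78 FPKM after treatment, below both ADPKD libraries, and was not called at -0.43 (adjusted p = 0.123), though it was called lower without ADPKD replicate 2 and called higher centred, at 1.05. *Pde4d* and *Pde7a* were called lower as deposited, but lost the call without single libraries: *Pde7a* without each library except ADPKD replicate 1, and *Pde4d* without ADPKD replicate 2 (-0.55) or either ADPKD+MMPP library. Only the p-value moved for *Pde7a* without either WT library (-0.63 in each), and *Pde4d* stood at -0.83 and -0.86 without the ADPKD+MMPP libraries, close to its full value of -0.84. *Pde7a* had a value of 0.04 after quantile normalization.

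The other phosphodiesterases were at or below a few FPKM in the treated libraries. *Pde6d* had 2.26 and 1.51 FPKM, a log2 fold change of -1.26 and a centred one of -0.46. *Pde5a* had 0.0689 and 0.186 FPKM, from 8 and 20 reads, and *Pde10a* had 0.171 and 0.0856, from 26 and 12 reads. *Pde1b* had 0.188 and 0.136 FPKM, from 12 and 8 reads. These 3 were called lower at -0.79, -1.06 and -1.81. Centring could not test *Pde5a* and *Pde10a*, and *Pde1b* was not called centred (-0.58). *Pde1a* had 4.65 and 5.46 FPKM, overlapping both other groups, and was not called in any of the comparisons as deposited. Its 95% interval against ADPKD ran from -0.49 to 0.72, but it was called higher against ADPKD both after quantile normalization and centred (1.98). Against WT it was called higher only when centred (1.83).

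PKA subunits gave 2 higher and 4 lower calls, 2 and 2 after quantile normalization, and 2 higher and 0 lower centred. The median was -1.11 as deposited and 0.41 centred, but the latter rests on *Prkar1b* and *Prkar2b*, whose centred sign the floor fixed, and gives no direction of the family. *Prkaca*, the main catalytic subunit (chromosome 8, 83972993 to 83996443), had 38.3 and 39.9 FPKM in ADPKD+MMPP against 19.98 and 16.0 in ADPKD. It rose by 1.09 (standard error 0.14, adjusted p = 0.000742), and by 1.81 centred. *Prkar2a* (chromosome 9, 108689314 to 108750436) had 24.1 and 22.9 FPKM against 7.47 and 9.40, and rose by 1.38 (standard error 0.14, adjusted p = 0.000312), with 0.90 centred. These are a catalytic and a type II regulatory subunit, and both were called higher under each scaling.

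*Prkar1a* had 26.4 and 25.8 FPKM in ADPKD+MMPP against 106 and 96.1 in ADPKD, a log2 fold change of -1.91 (standard error 0.10, adjusted p = 3.4e-05), and -0.31 centred, without a call. The other catalytic gene, *Prkacb*, had 3.17 and 3.74 FPKM (log2 fold change -1.06, centred -0.33). *Prkar1b* had 0.267 and 0.192 FPKM and *Prkar2b* had 0.0928 and 0.1004 from 4 reads each, with log2 fold changes of -1.17 and -1.42, which centring could not test. The regulatory to catalytic ratio was 1.23 and 1.12 in ADPKD+MMPP against 4.05 and 4.62 in ADPKD. *Prkaca* made up 92.4% and 91.4% of catalytic FPKM in ADPKD+MMPP and 69.0% and 67.8% in ADPKD, and *Prkar1a* made up 51.9% and 52.6% of regulatory FPKM against 90.3% and 88.1%. These ratios compare genes of different structure within a library, as 21.8% of the exon bases of *Prkar1a* and 52.3% of those of *Prkaca* lie in 1 transcript.

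Anchoring proteins gave 2 higher and 5 lower calls among 8, with 0 higher after rescaling to a common sum and 2 higher and 3 lower centred. *Akap12* had 3.95 and 3.08 FPKM in ADPKD+MMPP, from 302 and 217 reads, against 72.9 and 102 in ADPKD, a log2 fold change of -4.28 (standard error 0.26, adjusted p = 4.9e-05) and -2.36 centred. *Akap13* (chromosome 7, 75455534 to 75754609) had 0.113 and 0.0959 FPKM, from 28 and 22 reads, against 18.0 and 22.1, a log2 fold change of -4.25 (standard error 0.13, adjusted p = 1.18e-05) and -3.11 centred. *Akap8* had 0.723 and 0.719 FPKM, a log2 fold change of -2.89 (standard error 0.13, adjusted p = 2.26e-05) and -1.40 centred. As deposited, the treated libraries thus hold a small share of the ADPKD level of these 3 anchoring proteins, which were called lower under each scaling and centred. Of the exon bases of *Akap12*, *Akap13* and *Akap8*, 10.4%, 36.1% and 31.9% lie in 1 transcript. Centring takes out only the median of a bin, so what part the making of the values has in these falls was not tested.

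*Akap11* had 12.1 and 11 FPKM in ADPKD+MMPP against 6.84 and 5.91 in ADPKD and rose by 0.77 (standard error 0.12, adjusted p = 0.00187), with 1.99 centred; with a common sum the value was 0.53 and not called. *Akap9* had 9.75 and 9.71 FPKM, a log2 fold change of 0.63 that was -0.23 centred, 0.38 with a common sum and 0.58 without ADPKD replicate 2, none of which was called. *Akap1* had 2.66 and 2.67 FPKM, a log2 fold change of -1.47 and a centred value of 0.44. *Akap10* was called lower at -0.94, but not centred (-0.14). *Akap7* was not called as deposited (-0.31), while it was called lower with a common sum and higher centred (0.82).

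Of all genes tested, 27.7% were higher after treatment and 42.6% lower than in ADPKD, so a call by itself says little of the partners. Of the 30 tested partners, 9 were higher and 11 lower, with a median of 0.01. The counts were 14 and 9 after quantile normalization and 11 and 8 with TMM factors, but 8 and 13 with a common sum (median -0.28) and 7 and 10 centred, where the floor fixed the sign of *Calcr* and *Gcgr* among the 7. *Gnai1* had 61.3 and 65.8 FPKM after treatment against 19.2 and 16.3, and *Gnai3* had 137 in both treated libraries against 62.0 and 67.1; both were called higher. *Gnas* had 2.08 and 1.92 FPKM, *Rapgef3* 3.09 and 2.94, *Rapgef4* 0.279 and 0.439, *Abcc4* 0.504 and 0.316, *Crtc2* 3.81 and 5.24, and *Ptger4* 2.42 and 2.90, all called lower. Centred, *Gnai1* remained higher at 0.63 and the genes of the second group except *Gnas* remained lower, while *Gnai3* and *Gnas* were not called. *Pkia*, another inhibitor peptide of PKA, had 22.0 and 20.9 FPKM after treatment against 9.75 and 4.37, and was called higher at 1.56 (adjusted p = 0.00476), but not centred (0.71, adjusted p = 0.0632). *Pth1r* and *Gcgr*, at 14.1 and 14.6 and at 2.33 and 3.71 FPKM, overlapped ADPKD and were not called; both were called higher centred, at 1.52 and 2.42, the latter with a sign that the floor fixed. *Prkx*, a kinase close to the PKA catalytic subunits, had 18.3 and 18.8 FPKM against 14.5 and 16.4 and was not called, and was called lower centred at -0.85.

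Cell type markers shifted here too. Proximal tubule markers were higher for 11 of 14 genes, intercalated cell markers were higher for 10 and lower for 1 of 12, with a sum of 689 and 707 FPKM, and principal cell markers were higher for 5 and lower for 2 of 11. Podocyte markers were lower for 3 of 6. Endothelial markers were lower for 5 of 8, with a sum of 324 and 353 FPKM in ADPKD+MMPP and *Plvap* at 208 and 236 FPKM. Macrophage markers were higher for 4 and lower for 5 of 10, with *Lyz2* at 568 and 565 FPKM. Thick limb and distal convoluted tubule markers were higher for 3 and lower for 1 of 10, fibroblast and pericyte markers higher for 4 and lower for 3 of 8, and lymphocyte markers higher for 2 of 3. Centred, the counts were 14 higher for proximal tubule, 8 higher and 1 lower for intercalated cells, 1 and 1 for principal cells, 5 lower for podocytes, 8 lower for endothelium, 2 and 2 for macrophages, 6 higher for thick limb and distal tubule, 1 and 3 for fibroblasts and pericytes, and 0 for lymphocytes, of which 2 could be centred. The floor fixed the sign of 2 of these higher calls in proximal tubule, 1 in intercalated cells and 1 in thick limb and distal tubule. The counts of each of these lists thus changed with centring. For principal cells calls were lost while the median went from 0.14 to 0.71. The part of these shifts in the values of *Akap12*, *Adcy6*, *Pde3b* and the other members was not tested.

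ADPKD+MMPP against WT asks how far the treated libraries stood from the unaffected ones. *Adcy6*, *Adcy4*, *Akap12*, *Akap13*, *Akap8* and *Prkar1a* were at the lowest levels of the 3 groups after treatment, while *Pde3b*, *Prkaca* and *Prkar2a* were above both WT libraries. Of 37 members, 31 were called (83.8%, against 73.4% of all genes tested), 5 higher (13.5%, against 29.9%) and 26 lower (70.3%, against 43.5%). After quantile normalization 6 were higher and 20 lower. Centred, 8 were higher and 13 lower, where the floor of the scale fixed the sign of *Adcy3* and *Adcy7* and left no room for a lower call of *Adcy9* and *Pde7a*, all 4 of them called higher. Median log2 fold changes were -1.26 over the members and -0.36 over all genes tested, and the latter was -0.80 with a common sum, -0.14 with TMM factors and 0.07 after quantile normalization, where the share of higher genes among the called went from 40.8% to 53.0%. The comparison shares its libraries with those above.

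The log2 fold change was -5.75 for *Akap12* (standard error 0.26, adjusted p = 1.83e-05) and -4.85 for *Adcy6* (standard error 0.12, adjusted p = 7.9e-06). *Akap13* stood at -4.38, *Adcy4* at -3.84 and *Akap8* at -3.28. Each of these 5 was called lower again when centred. *Prkar1a* was at -2.18 and -0.57 centred, where it did not reach the fold required. *Pde3b* was higher by 1.83 (standard error 0.21, adjusted p = 0.000395) and *Prkaca* by 1.01 (standard error 0.14, adjusted p = 0.000916), both also centred. *Prkar2a*, at 1.07, was not called centred (0.58), and neither were *Pde8a* (0.69, centred 0.19) and *Akap9* (0.70, centred -0.19).

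The members called in ADPKD took different positions after treatment. *Adcy5* was lower in ADPKD and had a value between the groups after treatment, with a log2 fold change against WT of -0.46 (95% interval -0.87 to -0.05, not called), though centred it was called lower at -1.67. *Adcy1*, *Pde3a*, *Pde4c*, *Pde5a*, *Pde6d*, *Pde10a* and *Prkar1b* stayed called lower against WT, at -2.06, -1.94, -1.65, -1.99, -2.14, -1.71 and -2.11, of which *Adcy1*, *Pde3a*, *Pde6d* and *Prkar1b* were called lower centred as well, and *Pde10a* could not have been, given the floor of the scale. *Adcy7* and *Pde1b*, higher in ADPKD, were lower than WT after treatment at -0.77 and -0.78, but neither was called after quantile normalization (-0.19 and -0.11), and centring could not test either, as the floor fixed its sign. *Pde1b* lost this call without WT replicate 1 (-0.52) or either ADPKD+MMPP library. *Akap7* (-0.68, centred 0.50) lost its call without WT replicate 1 or ADPKD+MMPP replicate 2, and *Pde4d* (-0.88) without WT replicate 2 or either ADPKD+MMPP library.

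Of all genes tested, 29.9% were higher after treatment and 43.5% lower than in WT, so here too a call by itself says little of the partners. Among the 30 tested partners, 6 were higher and 13 lower, with a median of -0.41 that was 0.14 after quantile normalization. With TMM factors 10 were higher and 12 lower, with a common sum 6 and 16 (median -0.87), and centred 4 and 13 (median -0.52), where the floor fixed the sign of *Calcr* among the 4. *Rapgef3* and *Rapgef4* were lower than in WT at -3.66 and -3.32, *Gnas* at -2.26 and *Crtc2* at -2.99, and *Gnai1* and *Gnai3* were higher at 1.12 and 1.10. *Gnai1* was -0.18 and *Gnai3* -0.21 centred, neither of them called. Markers of podocytes were lower for 6 of 6 and those of endothelium lower for 7 and higher for 1 of 8. Proximal tubule markers were higher for 11 of 14. Macrophage markers were higher for 5 and lower for 1 of 10, fibroblast and pericyte markers 5 and 2 of 8, and intercalated cell markers 2 and 3 of 12. Centred, the counts were 0 and 8 for endothelium, 8 and 1 for macrophages, and 1 and 7 for intercalated cells. Among these macrophage calls the floor fixed the sign of *Adgre1* and *Itgam*. The part of these marker shifts in the values was not tested.

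Promoter windows were looked at because PKA acts on CREB, which binds the cAMP response element, and because several of the members moved together. RefSeq windows on GRCm38.p6 of 300 bases, from 250 before to 50 after a transcript start, were matched by symbol for 42 of the 51 members, 84 windows in all. *Adcy6*, *Adcy8*, *Akap12*, *Pde3a*, *Pde3b*, *Pde6a*, *Pde6c*, *Pde7a* and *Pde9a* had no entry. The full element, TGACGTCA, which reads the same on both strands, was in 2 of the 84 windows (2.38%), both of *Prkar1a* and holding the same site, against 588 of all 32851 windows (1.79%). By gene this is 1 of 42, against 549 of 27025. Its core TGACG, searched on both strands and contained in the full element, was in 16 windows of 14 members (19.0%), against 6837 of all windows (20.8%), or 6228 of the 27025 genes. Of the 8 members with an entry among the 11 called lower in ADPKD, *Prkar1b* alone had the core; of the 2 higher members *Adcy7* had it, and of the 21 with an entry among the 24 not called 11 had it. These groups had 13, 6 and 47 windows, so the counts are not alike in how much sequence was searched. A match describes letters in a window, not a binding site.

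The windows printed are those of the PKA subunit with the full element, of the catalytic subunit that was higher after treatment, and of the lower and higher members of ADPKD that hold the core, all 5′ to 3′ on the strand of the gene with the matches in capitals. *Prkar1a* is shown at chr11:109650612-109650911 on the plus strand, *Prkaca* at chr8:83972728-83973027 on the plus strand, *Prkar1b* at chr5:139149952-139150251 on the minus strand, and *Adcy7* at chr8:88282742-88283041 on the plus strand.
Prkar1a: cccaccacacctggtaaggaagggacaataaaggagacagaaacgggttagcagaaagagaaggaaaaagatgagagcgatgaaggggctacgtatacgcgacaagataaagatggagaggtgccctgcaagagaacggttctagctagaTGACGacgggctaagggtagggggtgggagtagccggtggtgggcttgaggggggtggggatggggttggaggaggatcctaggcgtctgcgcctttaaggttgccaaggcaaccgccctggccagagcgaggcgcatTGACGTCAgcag
Prkaca: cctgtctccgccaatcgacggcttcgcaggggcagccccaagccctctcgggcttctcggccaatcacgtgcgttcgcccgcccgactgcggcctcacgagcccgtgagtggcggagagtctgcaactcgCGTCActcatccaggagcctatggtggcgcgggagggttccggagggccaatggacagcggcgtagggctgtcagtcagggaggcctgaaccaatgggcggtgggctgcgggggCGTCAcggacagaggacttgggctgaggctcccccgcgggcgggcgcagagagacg
Prkar1b: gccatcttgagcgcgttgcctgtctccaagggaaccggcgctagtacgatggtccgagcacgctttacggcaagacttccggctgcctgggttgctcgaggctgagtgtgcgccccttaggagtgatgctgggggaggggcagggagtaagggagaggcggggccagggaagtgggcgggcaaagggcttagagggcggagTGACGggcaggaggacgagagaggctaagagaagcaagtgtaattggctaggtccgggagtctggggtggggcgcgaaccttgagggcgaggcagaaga
Adcy7: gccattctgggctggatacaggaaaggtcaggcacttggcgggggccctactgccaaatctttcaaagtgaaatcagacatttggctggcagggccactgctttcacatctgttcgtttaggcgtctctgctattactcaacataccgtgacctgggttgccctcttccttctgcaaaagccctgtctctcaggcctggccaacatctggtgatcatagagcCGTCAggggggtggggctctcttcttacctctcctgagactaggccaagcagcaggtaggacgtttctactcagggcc
The *Prkar1a* window holds the full element near its end and a separate core before it, and the *Prkaca* window holds 2 cores. The *Adcy7* and *Prkar1a* windows lie within their genes, past the annotated start, and that of *Prkar1b* spans the annotated start of its gene.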

How the data were processed

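RNA-seq values of 6 libraries, 2 in each of 3 groups, were analysed. Per the submitters' processing notes, reads were aligned to mm10 with HISAT2 2.1.0 and counted on genes with featureCounts 1.6.0, and the authors deposited FPKM for each library.

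Exon lengths, transcripts and positions were taken from GENCODE vM21, in which 53253 symbols matched a gene. The test took genes that reached 1 FPKM in 2 or more libraries, as log2 of FPKM plus 1, in limma 3.58.1 (trended empirical Bayes, R 4.3.3; tables and plots by Python 3.11.15, pandas 2.3.3 and matplotlib 3.10.9) in one fit over the 3 groups, with Benjamini-Hochberg adjustment over all genes tested. A gene was called at a fold of at least 1.5 and an adjusted p under 0.05. The steps were tested on simulated data. Alternatives covered the pseudocount, filters, scaling, the trend, a replicate block, groups in the fit, thresholds, each library left out and centring in 20 bins of transcript structure. The largest fall the log2 scale allows was set beside the shift from centring after the other results were known.

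Values in each library are given for members with a mean of at least 5 FPKM in a group or a call in ADPKD against WT, and for all PKA subunits. Of the partner list, genes called in ADPKD against WT or with a mean of at least 5 FPKM in a group could be named. Of each marker list, the most abundant gene over all libraries together could be named. *Esr1*, *Avpr2*, *Creb1* and *Crtc1* fall outside this rule and were given after their values were seen; other tested members outside it have fold changes only. The members and lists were chosen with earlier results of these data known.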

Additional observations from a re-analysis of the deposited data

How the results depend on the processing

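In ADPKD against WT, no direction of the 13 called members turned under any alternative. With FPKM of at least 1 required in all libraries, 21 members were tested and 0 were higher, 6 lower and 6 called in either direction, since fewer genes were tested. With a pseudocount of 0.1, 1 was higher and 10 lower. With no filter on low values, and with only the compared groups in the fit, 1 was higher and 9 lower. The fit of only the compared groups lost *Pde1b*, *Pde6d* and *Pde10a*. Over all genes it called 1270 higher and 1157 lower, in place of 1790 and 1580 with the treated libraries in the fit. With a fold of at least 2, 7 were lower. Leaving out 1 library at a time gave 1 to 3 higher, 6 to 14 lower and 7 to 17 called. With the replicate number as a block, 1 was higher and 11 were lower, as *Pde1b* was no longer called (adjusted p = 0.0515 from limma); no other call changed, and the treated libraries kept 7 higher and 24 lower against ADPKD and 5 and 26 against WT. Same-numbered libraries share a number only: their deviations correlated at 0.129, -0.008 and 0.014.

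In ADPKD+MMPP against ADPKD, 4 were higher with a common sum, 4 with a fold of at least 2 and 11 centred by structure. Lower members were 10 of 21 tested with FPKM of at least 1 in all libraries, 13 after quantile normalization and 8 centred, and those called in either direction were 16 with that filter and 19 centred. Against WT, 3 were higher with a common sum, 3 with a fold of at least 2 and 8 centred, 12 were lower with that filter and 13 centred, and 17 were called with that filter. Centring turned *Adcy3* (to 0.95), *Adcy9* (1.16), *Adcy5* (-0.0374), *Akap9* (-0.23), *Akap1* (0.44), *Prkar1b* (0.32), *Prkar2b* (0.50), *Pde7a* (0.50), *Pde5a* (0.69), *Pde9a* (0.11) and *Pde10a* (0.42) against ADPKD, and *Adcy7* (1.14), *Adcy3* (1.01), *Adcy9* (0.68), *Akap9* (-0.19), *Akap7* (0.50), *Akap1* (0.30), *Prkar2b* (0.24) and *Pde1b* (0.51) against WT. Quantile normalization turned *Pde7a* against ADPKD (0.0411). The turns of *Adcy3*, *Adcy9*, *Prkar1b*, *Prkar2b*, *Pde5a* and *Pde10a* against ADPKD and of *Adcy7*, *Adcy3*, *Prkar2b* and *Pde1b* against WT were fixed by construction, as centring adds more than the largest fall that log2(FPKM + 1) allows, and say nothing of direction; *Adcy9* against WT had no room for a lower call. The cause of the others was not tested.

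Single members under each alternative kept direction and call in 195 of the values of ADPKD against WT and lost the call in 32; the numbers were 484 and 47 after treatment and 500 and 36 against WT. With 2 libraries a group, a change of a member that was not called can be larger than the fold required, and members with few reads in the ADPKD+MMPP libraries are the least certain there.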
